A study of Malus domestica with 18 samples.

Results

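The difference between the early and the late effect of fruit bagging was examined in the skin of "Golden Delicious" apple. Unbagged fruit formed the control group (CK), and the treated group (T) was enclosed in light-impermeable paper bags from 20 days after flowering (DAF20). RNA-seq libraries of fruit skin from DAF30 (CK1 and T1) and DAF150 (CK3 and T3) were compared, 3 libraries a group, 12 of the 18 libraries of the study, so the T fruit had spent 10 days in the bag at the first stage and 130 days at the last. The replicates of each arm were 3 trees, the skin of 3 fruits was mixed for a sample, and whether one tree was sampled at both stages is not stated. The bag keeps light from the skin and changes the surroundings of the skin at once, and these parts of the treatment cannot be told apart in this design.

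Each gene has 2 courses from DAF30 to DAF150, the CK course (CK3 minus CK1) and the T course (T3 minus T1). The interaction is the T course minus the CK course, which equals the effect of the bag at DAF150 minus its effect at DAF30. All values below are FPKM, fragments corrected for gene length and library size, and differences are on the log2(FPKM + 1) scale. This scale understates the change of genes near 0. Of the 2856 genes in the deposited table, the 1399 that reached 1 FPKM in 3 or more of the 18 libraries were tested, and the other 1457 were not. The table lists only genes that had passed the authors' test of bagged against unbagged skin over the whole season, so shares are of genes selected for a response to the bag and not of the transcriptome. In that test 2246 genes were lower in T and 610 higher. An excess of genes lower in T in the counts below can therefore come from this selection. An interaction was called where limma's adjusted p, by Benjamini-Hochberg over the 1399 genes, did not exceed 0.05, and a course or a stage effect was said to move at the same adjusted p with a fold of at least 2.

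Young apple skin is green and fixes carbon, and its chloroplast genes depend on light. During fruit development the skin leaves cell division and early wall growth behind and takes up the expression of ripening, stress protection and pigment genes. In russeted skin the epidermis is replaced by a periderm whose cell walls hold suberin and lignin, and fruits are bagged in orchards to keep the skin smooth. A gene may answer to a bag by never starting its normal course, by losing a level that open skin keeps, or by taking up expression that open skin does not have. The split of the 2 courses separates these patterns.

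The interaction was called for 483 genes (34.5% of the genes tested), of which 188 had a higher interaction (13.4%), a bagging effect that was more positive at DAF150 than at DAF30, and 295 a lower one (21.1%). Over all genes tested the median interaction was -0.23, the median CK course 0.01 and the median T course -0.33. Scaling the libraries to a common median moved the split to 288 higher and 244 lower, with 187 and 243 of the main calls still made in the same direction, and the median over all genes to -0.02. In CK, 28.1% of the genes tested rose and 30.2% fell between the stages. In T, 16.4% rose and 29.6% fell.

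The CK course moved alone in 191 of the 483 genes, 136 of them rising and 55 falling. The T course moved alone in 129 genes, 58 rising and 71 falling. Both courses moved in the same direction in 109 genes and in opposite directions in 15, and in all 15 CK rose while T fell. The remaining 39 genes had no course past the threshold, and 36 of them had a lower interaction. These class sizes depend on the threshold, since dropping the minimum fold left 5 genes with no moving course and put 43 in the opposite class.

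**Figure D1:**
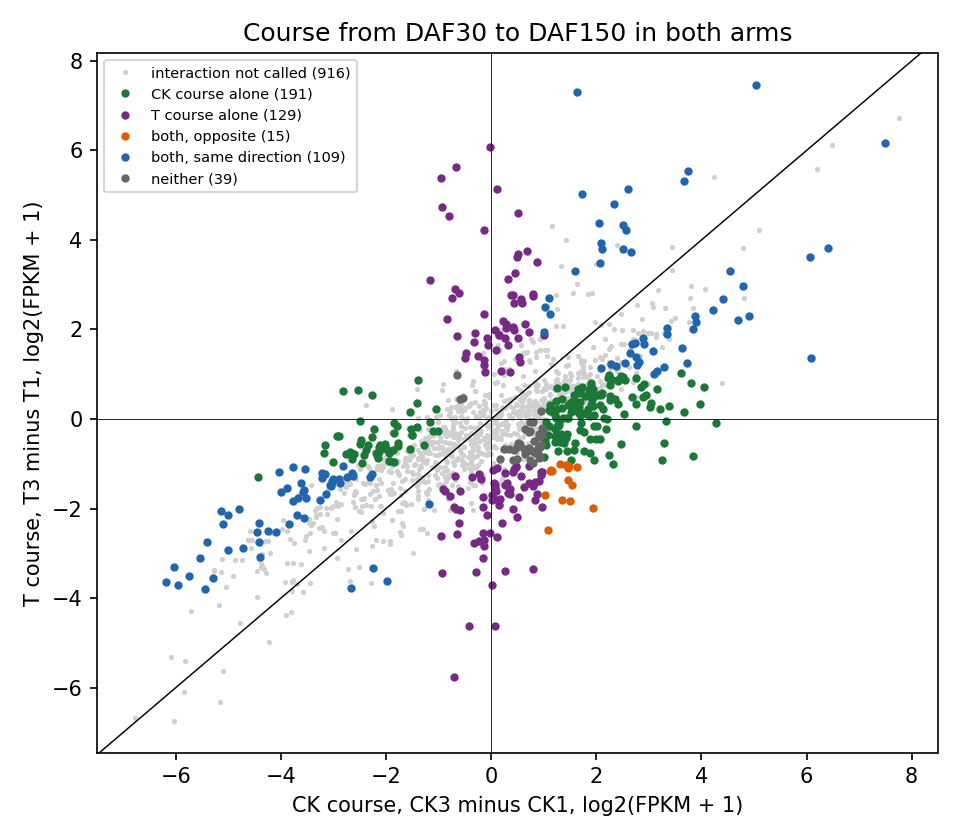
Course of each gene from DAF30 to DAF150 in unbagged (x axis) and bagged skin (y axis), in log2(FPKM + 1), coloured by class, with the number of genes in the key. The diagonal marks equal courses, and the 15 genes of the opposite class lie to the lower right, rising in CK and falling in T.

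Most of the change lay at the late stage. At DAF30, T was higher than CK in 1% of the genes tested and lower in 10.9%, whereas at DAF150 it was higher in 9.94% and lower in 25.4%. Of the 483 genes, 349 had an effect past the threshold at DAF150 alone, 263 of them lower in T and 86 higher. An effect at DAF30 alone was found for 81, of which 76 were lower in T. Only 2 genes passed at both stages with opposite signs, none passed at both with 1 sign, and 51 passed at neither. Both stage effects are terms of the interaction, so their counts among called genes describe the selected genes and are not separate evidence. The DAF30 effect rested on single libraries more than the others did: 166 genes passed with all libraries, 78 without CK1 replicate 1 and 109 without T1 replicate 3.

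The DAF60 libraries are not part of the interaction, although they entered the comparison by which the authors selected the table. At DAF60, T was higher than CK in 6.72% of the genes tested and lower in 51%. Of the 295 genes with a lower interaction, 172 were already lower in T at DAF60 (58.3%) and 1 was higher. This share lay near that of the genes without a called interaction, 56.2%. Of the 188 genes with a higher interaction, 26 were lower (13.8%) and 32 higher (17.02%). The classes were also set side by side at DAF60. Among the 71 genes that fell in T alone, 60 were lower in T at DAF60, with a median effect of -1.67 against -1.98 at DAF150. Among the 58 that rose in T alone, 10 were higher at DAF60, with a median effect of 0.18 against 1.99 at DAF150. Of the 136 genes that rose in CK alone, 66 were lower in T at DAF60. Beside these medians, the median effect over all genes tested was -1.06 at DAF60 and -0.37 at DAF150.

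**Figure D2:**
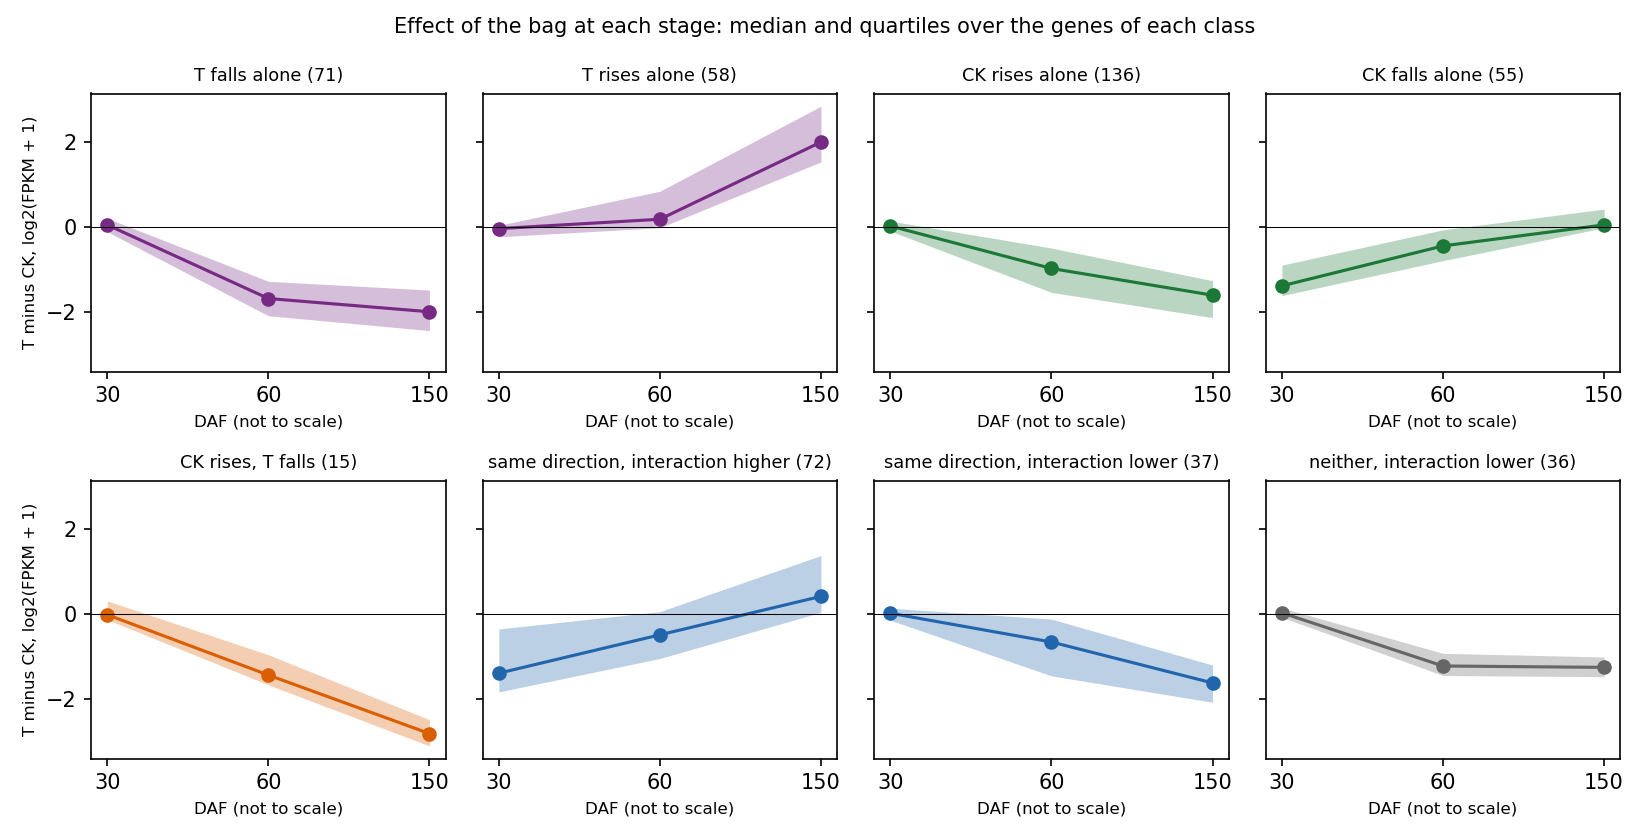
Effect of the bag (T minus CK, log2(FPKM + 1)) at DAF30, DAF60 and DAF150, as the median (points) and the quartiles (band) over the genes of each class. Genes falling in T alone were already at a median of -1.67 at DAF60, whereas genes rising in T alone were near 0 there and reached 1.99 at DAF150. Over all genes tested the median was -1.06 at DAF60 and -0.37 at DAF150.

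Low levels bear on a share of the calls. Of the 295 genes with a lower interaction, 98 had means under 1 FPKM in both CK1 and T1, and of the 188 with a higher one, 57 had means under 1 FPKM in both CK3 and T3. At such a level log2(FPKM + 1) holds the effect of the bag near 0, so a constant ratio can give an interaction. With a pseudocount of 0.1, 73 of these 98 and 32 of these 57 were still called, against 253 of all 295 and 144 of all 188, and no sign turned. Libraries of a group correlated at 0.895 to 0.959. Green tissue markers (19 in the table, photosystem, chlorophyll-binding and Rubisco genes) summed to between 4216 and 5739 FPKM in CK3 and between 483 and 865 in T3. Periderm markers (10, suberin enzymes) summed to 62.6, 128 and 19.9 in CK3, with replicate 3 lowest, and to between 17.7 and 25.1 in T3. Vascular markers (25, with laccases among them) summed to 51.2, 72.7 and 18.6 in CK3 and to 214, 38.3 and 70.4 in T3, with replicate 1 highest. In CK3 laccase-7 read 20.4, 31.9 and 8.89 FPKM and laccase-3-like 6.06, 23.02 and 4.06. Both had the replicate order of the periderm markers there, and whether the CK3 sum reflects vascular tissue was not tested. Epidermis and cuticle markers (14) summed to between 70.3 and 127 in CK3 and between 69.6 and 85.4 in T3. Of the green tissue markers tested, 13 of 18 had a lower interaction and none a higher one, of the vascular ones 10 of 15 a higher and 1 a lower, of the epidermis ones 1 of 10 a lower, and of the 9 periderm ones none was called. In bulk skin, fewer cells of a type and less RNA per cell cannot be told apart, and the part of these shifts in single results was not tested.

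Most photosynthesis genes tested had a lower interaction, and many fell in T alone. Of 16 genes for carbon fixation and photorespiration tested, 14 had a lower interaction and none a higher one, with a median of -2.73, and 9 of the 14 moved in T alone. Of 13 genes of the light reactions, 10 were lower and none higher, with a median of -1.50. Of the 132 genes tested whose description places the protein in the chloroplast, 88 were lower and 12 higher. Rubisco is the enzyme that fixes carbon dioxide. Its small chain gene MD17G1244400 (chromosome 17, 29290761 to 29292229) stood at 1991, 1848 and 2444 FPKM in CK1, 1973, 3162 and 994 in T1, 1845, 2635 and 2184 in CK3 and 120.1, 35.6 and 93.4 in T3. Bagged and open skin overlapped at DAF30, and at DAF150 each T library lay far below each CK library (interaction -4.70, standard error 0.64, adjusted p = 0.00011). In the DAF60 libraries the gene stood at 2739, 2907 and 1229.7 FPKM in CK2 and 196, 239 and 228 in T2, so most of the fall had taken place by then. A weaker small chain gene, MD09G1252100 (chromosome 9, 32385414 to 32387041), fell in T to 1.86, 0.4 and 1.55 FPKM, from 192, 234 and 34.9 in T1, while CK stood at 152, 125 and 129.7 in CK1 and 70.02, 114 and 69.2 in CK3 (interaction -5.05, standard error 0.81, adjusted p = 0.00029). Another small chain gene, MD13G1041900, was expressed at a low level throughout. It was at 0.03, 0.03 and 0.06 FPKM in CK1 and stood at 1.69, 1.01 and 1.21 FPKM in CK3 and 0.3, 0.29 and 0.17 in T3, a rise in CK alone (interaction -0.91, standard error 0.20, adjusted p = 0.0032) that was not called with median centring.

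Further enzymes of the Calvin cycle fell in T alone. Chloroplastic fructose-bisphosphate aldolase (MD10G1063600), which builds hexose phosphates from trioses, stood at 100.1, 101 and 126 FPKM in CK1, 104, 167 and 38.1 in T1, 100.2, 132 and 97.6 in CK3 and 6.77, 5 and 5.56 in T3. No T library reached the CK range at DAF150, whereas T1 spread on both sides of CK1 (interaction -3.72, standard error 0.61, adjusted p = 0.00033). The B subunit of chloroplastic glyceraldehyde-3-phosphate dehydrogenase (MD06G1006500), the reducing step of the cycle, read 68.9, 51.6 and 42.1 FPKM in CK3 and 5.54, 2.25 and 2.67 in T3 with an interaction of -3.65. Sedoheptulose-1,7-bisphosphatase (MD01G1146300), which serves regeneration of the acceptor, read 66.8, 82.6 and 48.5 FPKM in CK3 and 8.05, 7.98 and 7.44 in T3 with an interaction of -2.94. Ferredoxin-NADP reductase (MD15G1244500), which hands electrons of photosystem I to NADP, had courses of 0.11 in CK and -2.64 in T (interaction -2.75, standard error 0.47, adjusted p = 0.00047). Not every gene of the group took this course. For the chlorophyll a-b binding protein 151 genes, parts of the light-harvesting antenna, no interaction was called. MD09G1122500 rose in both arms (interaction -0.97, standard error 0.46, adjusted p = 0.1), and MD17G1113400 had courses of 1.46 in CK and 0.70 in T (interaction -0.76, standard error 0.59, adjusted p = 0.31).

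A chloroplastic lipoxygenase also fell in T alone. Linoleate 13S-lipoxygenase 2-1 (MD11G1023100, chromosome 11, 2013402 to 2020986), of the family that oxidizes linolenic acid in the path to jasmonate and green-leaf volatiles, stood at 33.7, 26.1 and 33.5 FPKM in CK1, 34.7, 45.2 and 16.1 in T1, 20.8, 20.04 and 29 in CK3 and 0.24, 0.14 and 0.34 in T3. CK1 and CK3 overlapped, and no T3 library reached 1 FPKM (interaction -4.21, standard error 0.45, adjusted p = 1.4e-05). The ycf23-like gene MD05G1286900, named after a plastid reading frame, went from 26.1, 31.1 and 14.3 FPKM in T1 to 1, 1.29 and 1.76 in T3 against 33.6, 40.7 and 39.04 in CK3 (interaction -4.14, standard error 0.51, adjusted p = 4e-05). Among regulators, a gene like HY5 (MD16G1132200), the bZIP factor that promotes light responses in Arabidopsis, also fell in T alone, with 6.5, 6.13 and 5.02 FPKM in CK3 and 1.04, 1.26 and 0.9 in T3 and an interaction of -1.58.

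Where both courses moved apart, CK rose and T fell in all 15 genes. Of the 3 genes for Rubisco activase tested, which frees the active site of Rubisco, 2 were among them, and the other, MD03G1086300, fell in T alone (interaction -3.13, standard error 0.51, adjusted p = 0.00031). MD11G1095300 (chromosome 11, 7949075 to 7952990) stood at 396, 530.2 and 523 FPKM in CK1, 489, 734 and 286 in T1, 1283, 1619.8 and 1205 in CK3 and 152, 117 and 124 in T3. Its levels overlapped at DAF30, and at DAF150 the lowest CK library lay above the highest T library many times over (interaction -3.34, standard error 0.47, adjusted p = 0.00012). MD01G1137900, also of the opposite class, read 79.6, 123 and 66.9 FPKM in CK3 and 8.69, 6.03 and 6.1 in T3 (interaction -3.93, standard error 0.47, adjusted p = 3.1e-05). TL20.3 (MD06G1065500), a protein of the thylakoid lumen, had courses of 1.53 in CK and -1.48 in T and an interaction of -3.01. Dehydrin 6 (MD15G1253900), of a family that protects cells during loss of water, was abundant in both arms and stood at 950.1, 433 and 448 FPKM in CK1, 879, 633 and 699 in T1, 2693, 1333 and 844 in CK3 and 270.0, 181 and 182 in T3. T1 lay within the range of CK1, and every CK3 library lay above every T3 library (interaction -3.16, standard error 0.57, adjusted p = 0.00066). The effect at DAF60 was 0.12 (adjusted p = 0.81).

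A copper-zinc and an iron superoxide dismutase moved in opposite directions. These enzymes turn superoxide into hydrogen peroxide, and plastids hold copper-zinc and iron forms. The chloroplastic copper-zinc form MD03G1128900 (chromosome 3, 12520733 to 12524775) stood at 130.0, 99.7 and 123 FPKM in CK1, 128, 138 and 74.9 in T1, 263, 242 and 242 in CK3 and 41.8, 13.02 and 12.1 in T3. T1 and CK1 overlapped, and CK3 was tight and far above every T3 library (interaction -3.56, standard error 0.51, adjusted p = 0.00014). The chloroplastic iron form MD07G1240700 (chromosome 7, 31204105 to 31207040) did the reverse and stood at 3.4, 1.81 and 1.83 FPKM in CK1, 1.93, 1.62 and 2.42 in T1, 0.78, 0.96 and 0.73 in CK3 and 4.71, 22.8 and 19.3 in T3. T3 replicate 1 lay well below the other 2 T3 libraries but above all of CK3 (interaction 3.08, standard error 0.57, adjusted p = 0.00082). Both genes for the copper chaperone of superoxide dismutase, which loads copper into the copper-zinc enzyme, had a lower interaction. MD04G1072900 read 85.8, 87.9 and 78.5 FPKM in CK3 and 20.9, 7.74 and 7.37 in T3 (interaction -2.69, standard error 0.44, adjusted p = 0.00031), and MD00G1069800 read 82.2, 79.2 and 75.1 FPKM in CK3 and 19.1, 8.41 and 9.65 in T3 (interaction -2.25, standard error 0.38, adjusted p = 0.00042). At DAF60 the effect on the copper-zinc form was -0.91 and that on the iron form 0.05 (adjusted p = 0.034 and 0.93). In all 4 genes T3 replicate 1 was the T3 library nearest to CK3.

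Genes for metal handling had more higher than lower interactions. Of 17 genes tested, 10 had a higher interaction and 2, the copper chaperones, a lower one, with a median of 1.79. Quantile normalization gave 7 higher and 2 lower, and none of the ferritin genes was called. Zinc transporter 8-like (MD09G1140300, chromosome 9, 10902562 to 10904224), of the ZIP family that brings zinc and iron into the cell, stood at 18, 24.9 and 15.2 FPKM in CK1, 11.7, 7.73 and 17.9 in T1, 9.41, 3.73 and 21.1 in CK3 and 345, 599.6 and 716 in T3. CK1 and CK3 overlapped, and each T3 library lay far above every T1 library (interaction 6.33, standard error 0.69, adjusted p = 1.6e-05). It was on its way at DAF60, with 21.3, 20.4 and 36.3 FPKM in CK2 and 67.8, 154 and 122 in T2. The zinc transporter 1-like genes rose later. MD10G1227800 read 2.13, 2.67 and 3.03 FPKM in CK2 and 0.63, 6.08 and 4.81 in T2, and then 0.23, 0.21 and 0.47 FPKM in CK3 and 19.6, 323 and 127 in T3 (interaction 6.30, standard error 0.99, adjusted p = 0.00024). T3 replicate 1 was again the lowest of its group, and the same held for MD05G1247200, with 2.24, 2.14 and 3.62 FPKM in CK3 and 61.4, 283 and 211 in T3 (interaction 5.67, standard error 0.70, adjusted p = 4.5e-05). The list also held genes for ferritin-4, the plastid iron store. MD12G1178200 and MD12G1178500 rose in T alone, to 151, 260.2 and 264 and 62.9, 110.2 and 108 FPKM in T3, against 44.2, 26.96 and 25.4 and 22.5, 20.2 and 12.99 in CK3. MD04G1164500 fell in both arms and less in T, with courses of -3.68 in CK and -1.77 in T. Nicotianamine synthase (MD12G1205900), which makes a chelator of iron, zinc and copper, rose in both arms and more in T, with 18.9, 20.4 and 21.4 FPKM in CK3 and 49.1, 95.4 and 69.4 in T3.

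Other genes also rose in T alone. A probable methyltransferase (MD06G1227300) stood at 1.6, 1.99 and 1.8 FPKM in CK1, 2.98, 2.75 and 2.69 in T1, 0.74, 0.36 and 0.73 in CK3 and 20.96, 179.9 and 170.2 in T3, with T3 replicate 1 lowest of the T3 libraries (interaction 5.33, standard error 0.75, adjusted p = 0.00012). The uncharacterized gene MD05G1118500 stayed under 1 FPKM in CK1, T1, CK2, T2 and CK3 and read 19.5, 73.2 and 44.6 FPKM in T3 (interaction 5.03, standard error 0.47, adjusted p = 4e-06). A 23 kDa jasmonate-induced protein-like gene (MD09G1163100) was up under the bag from DAF60, with 6.98, 1.97 and 2.33 FPKM in CK2 and 39.3, 38.7 and 29.6 in T2 and 0.04, 0.12 and 0.5 FPKM in CK3 and 13.9, 18.1 and 6.12 in T3 (interaction 3.45, standard error 0.59, adjusted p = 0.00043). Classical arabinogalactan protein 9 (MD05G1094200), a glycoprotein of the cell surface, read 7.1, 26.6 and 14.3 FPKM in CK1 and 10.03, 7.74 and 6.15 in T1. At DAF150 it read 25.9, 3.01 and 1.81 FPKM in CK3 and 189, 47.3 and 47.4 in T3, with replicate 1 highest in both groups (interaction 4.28, standard error 0.97, adjusted p = 0.0036).

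Genes of the secondary wall also rose in T alone, with 1 library above the others. Of 11 genes tested, 6 had a higher interaction and 1, cellulose synthase-like protein E1 (MD03G1029000), a lower one, with a median of 1.85. The 6 were cellulose synthase subunits 4 (MD00G1061100 and MD05G1189700) and 7 (MD15G1150300), which make secondary wall cellulose, and fasciclin-like arabinogalactan proteins 11 (MD04G1100000 and MD12G1120100) and 12 (MD11G1133200). Among them MD12G1120100 stood at 0.39, 0.53 and 0.04 FPKM in CK1, 0.77, 0.41 and 0.47 in T1, 1.78, 0.81 and 0.04 in CK3 and 22.8, 3.84 and 9.29 in T3 (interaction 2.36, standard error 0.60, adjusted p = 0.0068). T3 replicate 1 was highest in all 6. The summed vascular markers were also highest there, but they include genes of these families and are not a separate observation. MD15G1150300 read 17.4, 3.12 and 5.58 FPKM in T3 beside 3.05, 0.57 and 1.59 in CK3. The count of 6 fell to 2 without CK1 replicate 2, 3 without T1 replicate 3, 3 without CK3 replicate 2, 3 without CK3 replicate 3 and 3 without T3 replicate 1. Laccases, which couple monolignols into lignin, moved in both directions. Laccase-4 (MD04G1147700), both laccase-12 genes (MD07G1227900 and MD01G1158900) and laccase-17 (MD04G1131500) had a higher interaction with the T course moving alone. Laccase-4 read 3.53, 0.79 and 0.19 FPKM in CK3 and 47.4, 7.21 and 9.88 in T3 (interaction 2.79, standard error 0.74, adjusted p = 0.0086), again with T3 replicate 1 highest. Laccase-7 (MD04G1142300) had the opposite sign, with 0.81, 0.52 and 1.19 FPKM in CK1, 1.88, 0.38 and 0.83 in T1, 20.4, 31.9 and 8.89 in CK3 and 2.03, 0.83 and 1.39 in T3, a rise in CK alone (interaction -3.10, standard error 0.55, adjusted p = 0.00063). NAC43 (MD06G1121400), related to a factor that switches on secondary walls in Arabidopsis, rose in both arms and more in T, with 5.03, 5.32 and 1.86 FPKM in CK3 and 29.1, 12.5 and 12.5 in T3 and an interaction of 1.69, which was not called with a pseudocount of 0.1, nor was laccase-12 MD01G1158900.

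**Figure D3:**
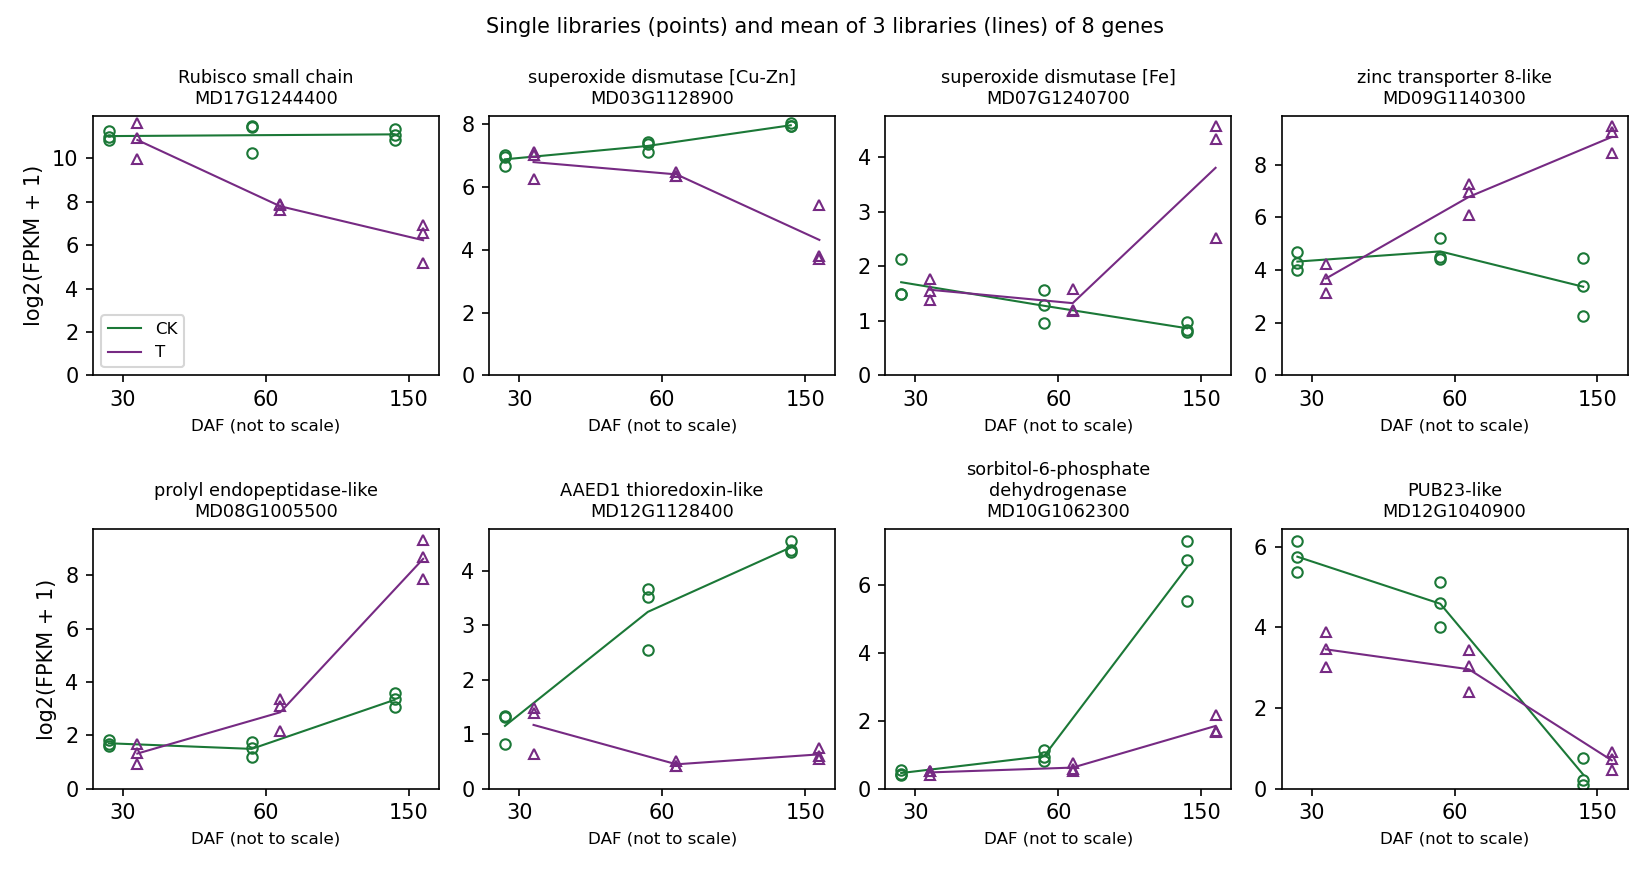
Levels of 8 genes as log2(FPKM + 1) in single libraries (circles for CK, triangles for T) and as the mean of 3 libraries (lines) at DAF30, DAF60 and DAF150. The copper-zinc superoxide dismutase fell in T while the iron form rose, zinc transporter 8-like parted from CK at DAF60, and the PUB23-like gene started lower in T and ended low in both arms.

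Genes that rose in open skin alone formed the largest set, with a median CK course of 1.86 and a median T course of 0.22 over 136 genes. Of them, 126 were lower in T at DAF150, beside 25.4% of all genes tested. The DAF150 effect is a term of the interaction that selected them, so this count only describes the set. The thioredoxin-like gene AAED1 (MD12G1128400, chromosome 12, 20348488 to 20350933), annotated to the chloroplast, stood at 1.51, 0.76 and 1.49 FPKM in CK1, 1.62, 1.81 and 0.55 in T1, 22.6, 19.9 and 19.5 in CK3 and 0.68, 0.51 and 0.46 in T3. CK3 libraries were close together and T3 stayed within or below the range of T1 (interaction -3.82, standard error 0.43, adjusted p = 1.6e-05). A gene like anthocyanidin 3-O-glucosyltransferase 2 (MD07G1306900, chromosome 7, 36326910 to 36328991), which adds glucose to anthocyanidins in the last step to the stable red pigments, was under 1 FPKM in CK1, T1, CK2, T2 and T3 and read 72.3, 6.68 and 13.7 FPKM in CK3. All of CK3 lay above all of T3, with replicate 1 highest (interaction -4.37, standard error 0.71, adjusted p = 0.00033). A non-specific lipid-transfer protein (MD12G1187500), of a family that carries lipids to the cuticle, had the same shape, with 189, 9.57 and 42.8 FPKM in CK3 and 2.09, 0.83 and 0.98 in T3 (interaction -4.67, standard error 0.98, adjusted p = 0.002). The Rab21-like protein of water stress (MD02G1140000), a dehydrin relative, read 31.1, 24.4 and 12.6 FPKM in CK1, 94.2, 34.98 and 22.1 in T1, 506, 159 and 118 in CK3 and 30.98, 17.1 and 19.3 in T3. Here T3 stayed within or below the range of T1 while CK3 rose above every other group (interaction -4.17, standard error 0.87, adjusted p = 0.0019). The flowering-promoting factor 1-like gene MD08G1131700 was listed at 0 in all CK1 and T1 libraries and read 5.99, 40.8 and 12.4 FPKM in CK3 and 0.82, 0.09 and 0 in T3, so its interaction of -3.65 depends on the pseudocount.

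Of the 7 small heat shock genes tested, which keep unfolded proteins soluble, 4 rose in CK alone with a lower interaction. MD08G1068700 fell in CK alone with a higher interaction of 1.24. MD08G1068400 and MD15G1053800 had interactions of -2.20 and -1.58 that did not pass (adjusted p = 0.053 and 0.096). Of 15 heat shock and chaperone genes tested, 8 had a lower interaction and 1 a higher one, with a median of -2.11. Median centring gave 7 lower and 4 higher, and quantile normalization 8 and 3. The 8 included the copper chaperones described above, which the keyword also caught, and the 4 small heat shock genes. The list's highest interactions, 2.09 for MD01G1148800 and 1.59 for MD07G1215700, were not called. These genes are described as nematode resistance protein-like HSPRO2, caught by spelling, and the counts and the median include them. The 17.1 kDa class II protein MD08G1068000 stood at 2.2, 3.85 and 1.1 FPKM in CK1, 0.92, 1.26 and 2.49 in T1, 156, 14.5 and 35.1 in CK3 and 9.14, 1.7 and 1.93 in T3. CK3 replicate 1 was far above the others, yet each CK3 library exceeded each T3 library (interaction -2.997, standard error 0.90, adjusted p = 0.017). MD08G1068700, which has the same protein name, was not called with a pseudocount of 0.1. Of 29 oxidase and redox genes, 17 were lower and 1, the iron superoxide dismutase, was higher, with a median of -1.30. A polyphenol oxidase (MD10G1299300), which browns phenolics, rose from 0.58, 0.51 and 1.33 FPKM in CK1 to 84.9, 19.97 and 12.9 in CK3 against 2.52, 1.53 and 1.14 in T3, with an interaction of -3.33. Another, MD05G1320800, fell in both arms, with courses of -6.77 in CK and -6.67 in T (interaction 0.10, standard error 0.84, adjusted p = 0.93). STN7 (MD13G1046400), the kinase that balances light between the photosystems, read 25.1, 28.5 and 30.4 FPKM in CK3 and 6.21, 6.37 and 6.24 in T3 (interaction -2.33, standard error 0.36, adjusted p = 0.00023). Ubiquitin carboxyl-terminal hydrolase 12 (MD08G1143400) read 69.1, 29.7 and 31.6 FPKM in CK3 and 6.64, 5.51 and 11.5 in T3 (interaction -2.92, standard error 0.48, adjusted p = 0.00033).

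Many genes that fell in open skin alone were already low in T at DAF30. The 55 genes had a median effect of the bag of -1.38 at DAF30 and 0.05 at DAF150. Of them, 37 were lower in T at DAF30, beside 10.9% of all genes tested. Since the DAF30 effect is a term of the interaction that selected them, this count only describes the set. Their T courses did not pass the threshold, but 48 of the 55 were below 0, with a median of -0.58. Cytochrome P450 94C1-like (MD11G1171100, chromosome 11, 18610980 to 18612581), of a group that oxidizes jasmonoyl-isoleucine, stood at 71.2, 26.6 and 13.1 FPKM in CK1, 5.65, 2.12 and 0.83 in T1, 0.08, 0.11 and 1.34 in CK3 and 0.19, 0.04 and 1.04 in T3. Bagged skin was already low at DAF30, below every CK1 library, and no library exceeded 1.34 FPKM at DAF150 (interaction 3.13, standard error 0.84, adjusted p = 0.0096). With a pseudocount of 0.1 the adjusted p of its interaction was 0.055. Its T course of -1.30 did not pass (adjusted p = 0.071). MYC2-like (MD14G1137200), the central factor of jasmonate responses in Arabidopsis, had the same form, with 13.6, 8.97 and 7.71 FPKM in CK1 and 3.68, 2.75 and 2.29 in T1 and 0.37, 1.56 and 0.59 FPKM in CK3 and 1.82, 0.68 and 1.42 in T3. A BPS1-like gene (MD07G1022600), whose model overlaps another, read 9.77, 9.85 and 17.3 FPKM in CK1 and 2.66, 1.36 and 2.95 in T1, with an interaction of 2.55. The glycine-rich wall protein MD06G1035100 read 6.98, 26.3 and 3.12 FPKM in CK1 and 2.31, 4.66 and 1.55 in T1 and 0.02, 0.18 and 0.04 FPKM in CK3 and 0.54, 5.28 and 0.47 in T3 (interaction 2.58, standard error 0.85, adjusted p = 0.027), and its call was lost without CK1 replicate 2, T1 replicate 1, T1 replicate 3, CK3 replicate 1 or T3 replicate 2.

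Extensins took another form in this set. Extensins are proline-rich proteins that stiffen the wall. MD04G1031300 (chromosome 4, 3511526 to 3512850) stood at 13.8, 119 and 12.7 FPKM in CK1, 13.9, 10.4 and 34.2 in T1, 4.01, 3.55 and 2.04 in CK3 and 16.6, 37.2 and 32.3 in T3. CK1 replicate 2 stood apart from the other CK1 libraries, T overlapped CK at DAF30, and each T3 library lay above each CK3 library (interaction 3.45, standard error 0.91, adjusted p = 0.0085). The arms had already parted at DAF60, with 2.44, 3.65 and 4.48 FPKM in CK2 and 51.4, 57.1 and 102 in T2. MD04G1031400 and MD04G1031500 are gene models that overlap this one and may share its reads, so the 3 are not separate measurements. In the group for wall loosening and pectin, 9 of 25 genes tested had a higher interaction and none a lower one, with a median of 0.67. The 9 include the 3 overlapping extensin models and classical arabinogalactan protein 9, which the keywords also caught. The count is therefore not one of loosening and pectin genes alone. Repetitive proline-rich cell wall protein 2 (MD02G1292200), a structural wall protein whose model overlaps another, fell in both arms and less in T, and stood at 4933, 6812 and 7095 FPKM in CK1, 5770.0, 6246 and 10497 in T1, 78.3, 311 and 215 in CK3 and 1983, 1908 and 1372 in T3. At DAF150 every T library was above every CK library (interaction 3.09).

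Genes that fell in both arms and less in T often began lower in T. Of the 72 genes with both courses in 1 direction and a higher interaction, 52 fell in both arms and fell less in T, and 41 of the 52 were lower in T at DAF30. Since the DAF30 effect is a term of the interaction that selected them, this count only describes the set. The ubiquitin ligase gene PUB23-like (MD12G1040900, chromosome 12, 4528126 to 4529346), whose Arabidopsis relative dampens immune responses, stood at 68.8, 40.6 and 52.4 FPKM in CK1, 13.7, 7.08 and 9.97 in T1, 0.06, 0.15 and 0.69 in CK3 and 0.88, 0.65 and 0.38 in T3. T1 lay below CK1 without overlap, and all DAF150 libraries were under 1 FPKM (interaction 2.65, standard error 0.50, adjusted p = 0.00099). The cytokinin response factor CRF4 (MD07G1284200), an AP2/ERF factor, had the same form, with 34.6, 34.6 and 47.8 FPKM in CK1 and 11.8, 5.32 and 8.35 in T1 and 0.82, 0.88 and 3.08 FPKM in CK3 and 4.93, 3.39 and 1.43 in T3 (interaction 2.84, standard error 0.63, adjusted p = 0.0029). A lectin receptor kinase (MD12G1147700) read 15.4, 22.1 and 10.3 FPKM in CK1 and 3.4, 1.75 and 2.11 in T1, and at most 1.04 FPKM at DAF150 (interaction 2.71, standard error 0.43, adjusted p = 0.00024). In 2 genes the effect of the bag passed the threshold at both stages with opposite signs. The AP2-domain factor MD15G1193700 stood at 104, 53.4 and 91.01 FPKM in CK1, 31.1, 22.3 and 22.7 in T1, 1.23, 2.19 and 2.38 in CK3 and 7.72, 8.54 and 2.2 in T3, with an effect of -1.63 at DAF30 and 1.16 at DAF150 (interaction 2.79, standard error 0.59, adjusted p = 0.0023). T3 replicate 3 lay within the CK3 range, so these libraries overlapped at DAF150. The Myb-like activator MD08G1107400 stood at 131, 107 and 128 FPKM in CK1, 53.1, 39.5 and 42.5 in T1, 0, 0.77 and 1.64 in CK3 and 3.41, 2.5 and 2.19 in T3, without overlap at either stage, with effects of -1.42 and 1.13.

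Among genes that rose in both arms, 33 rose less in T and 20 rose more. NADP-dependent sorbitol-6-phosphate dehydrogenase (MD10G1062300, chromosome 10, 8403348 to 8407079), the key enzyme of sorbitol synthesis in apple leaves, stood at 0.36, 0.31 and 0.46 FPKM in CK1, 0.43, 0.43 and 0.32 in T1, 158, 108 and 45.2 in CK3 and 3.49, 2.25 and 2.21 in T3. All of CK3 lay far above all of T3 (interaction -4.70, standard error 0.47, adjusted p = 7.7e-06). At DAF60 it was still low in both arms, with 0.89, 1.21 and 0.76 FPKM in CK2 and 0.5, 0.68 and 0.44 in T2. A second gene for this enzyme, MD05G1054800, read 30.1, 8.17 and 5.99 FPKM in CK3 and 1.54, 2.5 and 2.62 in T3 (interaction -2.04, standard error 0.60, adjusted p = 0.015). Cytosolic ascorbate peroxidase 2 (MD12G1125600), which removes hydrogen peroxide, read 149.9, 63.1 and 42.5 FPKM in CK3 and 28.98, 14.1 and 8.83 in T3 (interaction -2.61, standard error 0.62, adjusted p = 0.0047), and dehydrin Xero 1-like (MD02G1139900) read 431, 199 and 79.5 FPKM in CK3 and 72.4, 25.1 and 48.4 in T3 (interaction -2.48, standard error 0.69, adjusted p = 0.012). In the other direction, the prolyl endopeptidase-like gene MD08G1005500 (chromosome 8, 485459 to 491151), a protease that cuts after proline, stood at 2.55, 2.15 and 2.06 FPKM in CK1, 0.9, 1.53 and 2.19 in T1, 9.3, 7.24 and 10.9 in CK3 and 233, 631 and 405 in T3. It rose in both arms, and every T3 library stood above every CK3 library (interaction 5.67, standard error 0.53, adjusted p = 4e-06). Cationic amino acid transporter 1-like (MD10G1254300) read 20.9, 17.7 and 49.9 FPKM in CK3 and 104, 71.5 and 178 in T3 after 7.86, 10.3 and 4.79 FPKM in CK1 and 3.45, 1.42 and 2.65 in T1, so that T began below CK and ended above it (interaction 3.30, standard error 0.65, adjusted p = 0.0013). The acyltransferase DCR-like (MD04G1147900), whose Arabidopsis relative is needed for cutin, reached 163, 257 and 182 FPKM in CK3 and 286, 306 and 1111 in T3, with T3 replicate 3 highest (interaction 2.43, standard error 0.72, adjusted p = 0.015).

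Genes with no moving course had small opposed shifts. CRS2-associated factor 1 (MD15G1193500), which splices plastid introns, read 5.63, 4.32 and 5.16 FPKM in CK1 and 7.28, 6.44 and 4.63 in T1, then 11.7, 9.36 and 7.78 FPKM in CK3 and 2.43, 2.99 and 2.35 in T3 (interaction -1.78, standard error 0.36, adjusted p = 0.0016). The sanguinarine reductase-like gene MD03G1169200 had courses of 0.91 in CK and -0.87 in T (interaction -1.78, standard error 0.39, adjusted p = 0.0029), and purine permease 10 (MD10G1266200) courses of -0.66 in CK and 0.98 in T (interaction 1.64, standard error 0.49, adjusted p = 0.016).

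Suberin, cutin and wax genes, the group closest to russeting, gave few calls. Of 17 tested, 1 had a lower interaction, HOTHEAD (MD09G1193200), which fell in both arms, and none a higher one. The median interaction was -1.19, with a median course of 1.70 in CK and 0.63 in T. With median centring the 1 call was a higher one, and with a pseudocount of 0.1 HOTHEAD was not called (adjusted p = 0.055). The list leaves out the DCR-like gene MD04G1147900 and the lipid-transfer protein MD12G1187500 described above, which had a higher and a lower interaction. The spread within CK3 was wide, as in the periderm markers. CYP86A1 (MD03G1073600), which hydroxylates fatty acids for suberin and whose model overlaps another, stood at 0.25, 0.19 and 0.7 FPKM in CK1, 0.63, 0.35 and 2.15 in T1, 7.81, 18.3 and 1.52 in CK3 and 1.86, 1.92 and 2.39 in T3 (interaction -1.79, standard error 0.88, adjusted p = 0.12), with CK3 replicate 3 lowest and below each T3 library. At DAF60 the arms did not overlap, with 16.4, 37.5 and 5.31 FPKM in CK2 and 1.45, 0.95 and 1 in T2. Feruloyl transferase (MD06G1137500), which couples ferulate to suberin, read 14.3, 18.96 and 4.13 FPKM in CK3 and 4.87, 2.57 and 3.34 in T3 (interaction -1.79, standard error 0.77, adjusted p = 0.079). Without CK3 replicate 3 the number of lower calls was 11 of 17. Leaving out a single other library gave between 0 and 3. A P450 of the cutin path, CYP86A8 (MD01G1064900), had an interaction of 1.06 (adjusted p = 0.065). Of 16 GDSL esterase/lipases, 1 was higher and 1 lower, with a median of -0.69.

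Of the 15 lignin and phenylpropanoid enzymes tested, 2 were called. Shikimate O-hydroxycinnamoyltransferase-like (MD17G1225100), which makes the esters on the way to guaiacyl lignin, stood at 69.8, 108 and 128 FPKM in CK1, 101, 105 and 88.6 in T1, 106, 96.4 and 168 in CK3 and 478.5, 372 and 363 in T3. CK1 and CK3 overlapped, and all of T3 was above all of CK3 (interaction 1.75, standard error 0.38, adjusted p = 0.0029). With quantile normalization the interaction was 1.56 and was not called (adjusted p = 0.12). Cinnamyl alcohol dehydrogenase 6 (MD08G1009200), of the family that makes monolignols, fell in T alone and read 18.4, 16.6 and 10.9 FPKM in CK3 and 5.55, 3.28 and 2.2 in T3 (interaction -1.75, standard error 0.40, adjusted p = 0.0036). The effects at DAF60 had the same signs, 1.06 and -1.75 (adjusted p = 0.0027 and 8.8e-05). Phenylalanine ammonia-lyase 1-like (MD04G1096200), the entry to the pathway, had an interaction of 1.24 (adjusted p = 0.24). Of 13 flavonoid enzymes, 4 were lower and none higher, with a median of -0.79. Over all genes tested 21.1% were lower and 13.4% higher, so the count is not read as a feature of the group. Both rescalings gave 4 lower and 1 higher, and leaving out 1 library gave 3 to 6 lower and 0 to 1 higher. Besides the glucosyltransferase above, the 4 lower ones were chalcone isomerase-like (MD07G1186300), a second glucosyltransferase (MD09G1142000) and anthocyanidin reductase-like (MD06G1103900). Chalcone isomerase, an early step of the pathway, read 47.2, 26.7 and 24.3 FPKM in CK3 and 8.54, 4.87 and 8.88 in T3 (interaction -1.64, standard error 0.42, adjusted p = 0.007). Of 9 genes that the study had named for suberin on these samples, 4 were lower (8 without CK3 replicate 3), which is not independent evidence of their direction. The 4 are the lipoxygenase, chalcone isomerase and sorbitol-6-phosphate dehydrogenase genes described above and a gene like SRG1 (MD11G1272500), of the 2-oxoglutarate-dependent dioxygenases. The last read 14.7, 12.2 and 7.17 FPKM in CK3 and 0.99, 0.65 and 1.67 in T3 (interaction -2.51, standard error 0.53, adjusted p = 0.0021). All 4 were picked by the paper for qRT-PCR and are not in its list of the cutin, suberin and wax pathway. The 5 genes of that list, among them CYP86A1, were not called with all libraries.

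**Figure D4:**
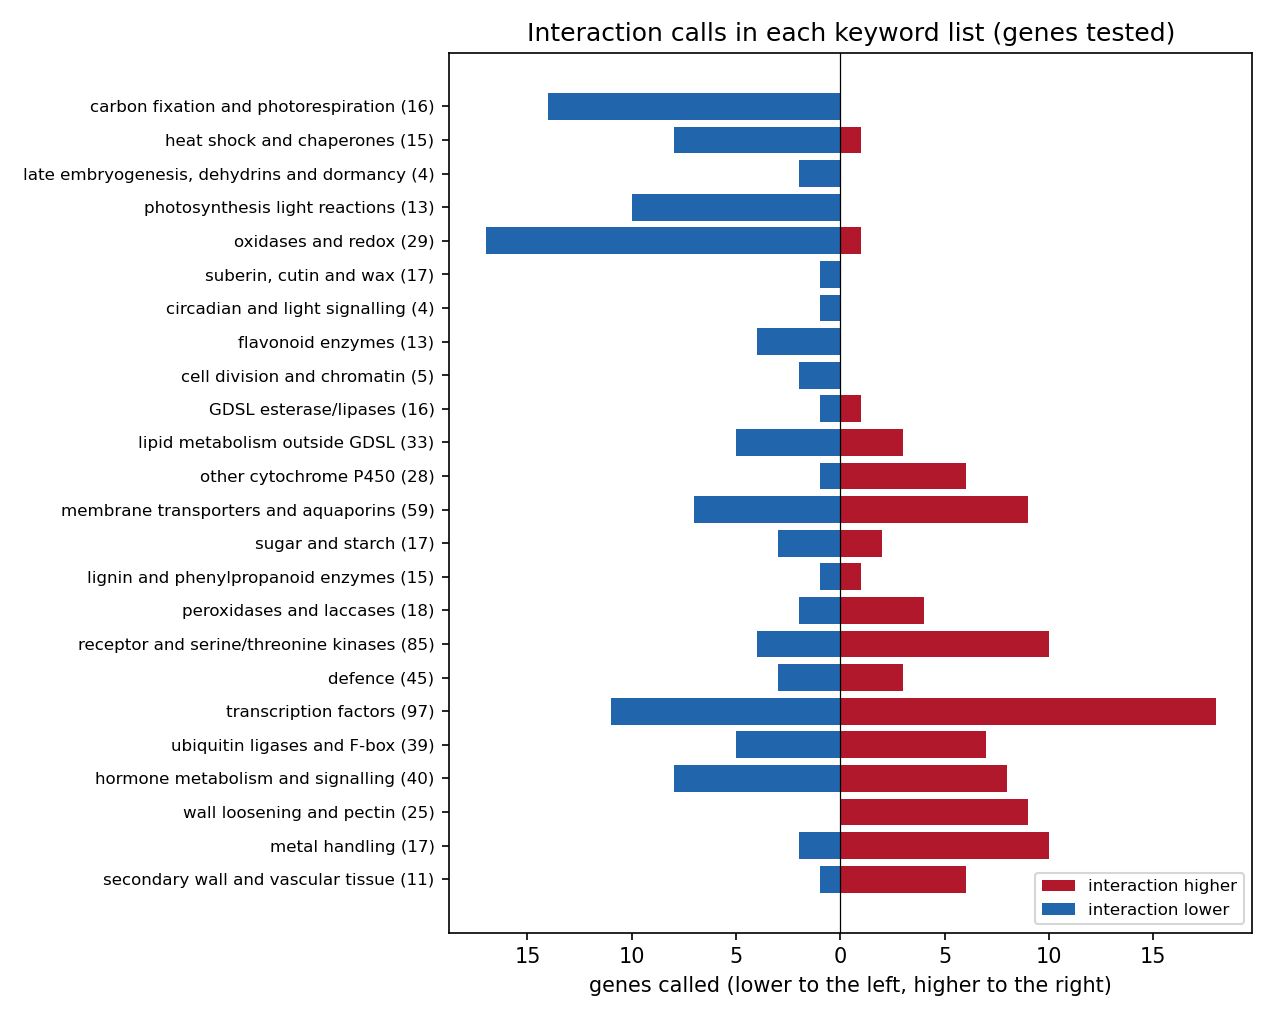
Number of genes with a lower (left) or higher (right) interaction in each keyword list, with the number of genes tested in brackets, ordered by the median interaction of the list. Carbon fixation had 14 of 16 genes lower, and metal handling 10 of 17 higher.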

How the data were processed

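Libraries of fruit skin were sequenced on a BGISEQ-500, and the authors aligned reads to the apple genome (GDDH13 v1.1) with Bowtie2 and deposited expression as FPKM with 2 decimals. The version of Bowtie2 and the counting tool are not stated there or in the paper. As deposited, the log2 ratios, p-values and q-values hold the authors' comparisons of T with CK, and those over all libraries were read only to learn how the 2856 genes had been selected. Of the per-sample columns, 0 were unmatched. The study states the sequence output of each library, which is not used here. The fragments behind each FPKM value were not recovered, since only 2 to 7 genes a library had values near that of 1 fragment.

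The log2(FPKM + 1) values of 18 libraries were fitted as 6 groups (12 residual degrees of freedom) with limma 3.58.1 and statmod 1.5.0 in R 4.3.3, with trend and robust moderation, a procedure tested on simulated data. Whether samples of 1 stage came from separate trees rests on the study's count of trees alone, so p-values measure the spread between these samples. Values of a group are listed in the order of replicates 1 to 3. Keyword lists (25) were matched to gene descriptions, and a gene can be in several lists. Members, lists and rules were chosen with earlier results of these data known. The rule for named genes took called genes with a description and a mean of at least 5 FPKM in CK1, T1, CK3 or T3. From these it took the 5 largest interactions in each direction of the CK-alone, T-alone and opposite classes and the 2 largest of the other classes. It added the 2 highest and 2 lowest interactions of each list, and called genes that the paper names. All other genes in the text were chosen after their values were seen. Positions are those of the deposited table. Alternatives changed the pseudocount, filter, libraries, replicate block, moderation, scaling and thresholds, or left out 1 library. Plots were made with matplotlib 3.10.9 (Python 3.11.15).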

Additional observations from a re-analysis of the deposited data

Results flagged for a closer look

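The effect of the bag differed between DAF30 and DAF150 in 483 of the 1399 genes tested, as tested by the limma interaction, and the genes with the largest differences are given above. In 2 of them the effect passed the threshold with opposite signs at DAF30 and DAF150. These are the AP2-domain factor MD15G1193700, with an interaction of 2.79, and the Myb-like activator MD08G1107400, with an interaction of 2.56. Both fell in CK and in T between the stages. Groups of 3 libraries were not examined for outlying libraries.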

How the results depend on the processing

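The signs of the 77 called genes named by rule did not turn under either rescaling, and 70 of them were called in every fit that left out 1 library. With a pseudocount of 0.1, 35 genes were in the opposite class, 12 had no moving course and 97 had an effect at DAF30 (15, 39 and 166 with a pseudocount of 1). Without a filter 164 genes had no moving course. A filter at 5 FPKM left 187 lower interactions, 527 moving CK courses, 106 genes moving in CK alone, 78 in T alone and 17 in neither. Median centring gave 288 higher interactions, 54.1% of the calls against 38.9%. Quantile normalization gave 73 genes with an effect at DAF30 and 129 called genes with one at DAF60 (231 before). Without the minimum fold 43 genes were in the opposite class and 5 had no moving course. At an adjusted p of 0.001 and a fold of at least 2, 24 higher and 65 lower interactions were called.

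Leaving out 1 library gave 147 to 204 higher and 252 to 364 lower interactions, 163 to 243 genes moving in CK alone, 115 to 137 in T alone, 12 to 21 in opposite directions, 77 to 122 in the same direction and 30 to 51 in neither. The effect at DAF30 passed for 78 (without CK1 replicate 1) to 191 genes (without CK2 replicate 1), and that at DAF150 for 434 to 569. The deviations of samples sharing a replicate number correlated at -0.347 to 0.175 within a stage (median 0.11). Within an arm they correlated at -0.197 to 0.394 (median 0.0477), highest between replicate 3 of CK2 and replicate 3 of CK3. For samples with different numbers the ranges were -0.399 to 0.436 within a stage (median -0.0355) and -0.411 to 0.235 within an arm (median -0.0198). Whether a replicate number marks the same tree was not tested. With the replicate number as a block, 188 higher and 299 lower interactions were called, and with a block for each course 194 and 305. Groups of 3 libraries, with unknown fragment counts per gene, limit what could be called at low FPKM.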

Other observations

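Transcription factors, hormone genes, kinases and transporters held further genes whose courses differed. Over all genes tested 34.5% were called, 13.4% higher and 21.1% lower. Beside these shares the counts below are not read as a feature of the groups. Of 97 transcription factors tested, 18 had a higher interaction and 11 a lower one, with a median of 0.18, and median centring gave 33 and 8 and quantile normalization 20 and 8. Leaving out 1 library gave between 12 and 20 higher and between 7 and 18 lower. Counts beyond 1.5 times were 7 without CK1 replicate 2, 7 without T1 replicate 1, 7 without T1 replicate 2, 7 without CK3 replicate 1, 7 without CK3 replicate 2, 18 without CK3 replicate 3 and 7 without T3 replicate 2 for the lower ones. A factor of the CONSTANS-like group (MD17G1243400) rose in CK alone and read 19.9, 19.6 and 15.04 FPKM in CK3 and 8.97, 7.55 and 5.23 in T3 (interaction -1.75, standard error 0.40, adjusted p = 0.0039). A Dof factor (MD02G1163500) read 9.83, 8.48 and 10.01 FPKM in CK3 and 3.98, 2.53 and 5.21 in T3 (interaction -1.58, standard error 0.41, adjusted p = 0.0079), with its highest levels at DAF60, 32.4, 30.9 and 21.9 FPKM in CK2 and 9.02, 8.27 and 4.56 in T2. Of 40 genes of hormone metabolism and signalling, 8 were higher and 8 lower, while median centring gave 11 and 6, quantile scaling 11 and 4, and leaving out a library between 5 and 11 higher and between 4 and 10 lower. The lower ones include a carboxymethylenebutenolidase homolog (MD08G1217800) that the keyword caught by its spelling alone. Genes for abscisic acid 8'-hydroxylase, which breaks down abscisic acid, had opposite signs. MD16G1285900 rose in T alone, with 0.82, 3.57 and 0.4 FPKM in CK3 and 8.16, 7.34 and 2.82 in T3, and MD03G1088100 rose in both arms and less in T, with 10.4, 7.31 and 2.07 FPKM in CK3 and 2.76, 1.61 and 1.11 in T3, and the latter was called under neither rescaling nor with a pseudocount of 0.1.

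Of 59 membrane transporters and aquaporins, 9 were higher and 7 lower, with 10 and 4 by median centring, 7 and 3 by quantile scaling, and 14 lower without CK3 replicate 3. Potassium transporter 1 (MD11G1069200) was tight in every group, with 0.53, 0.61 and 0.69 FPKM in CK3 and 6.69, 6.71 and 5.93 in T3 (interaction 2.17, standard error 0.24, adjusted p = 1.6e-05), and a chloroplastic cadmium/zinc-transporting ATPase (MD02G1179100) read 113, 85.8 and 124 FPKM in CK3 and 155, 469 and 452 in T3, a call lost with quantile normalization. Of 85 receptor and serine/threonine kinases, 10 were higher and 4 lower, of 45 defence genes 3 and 3, and of 39 genes of ubiquitin ligases and F-box proteins 7 and 5. Centred on the median, the counts were 15 and 4 for kinases, 9 and 2 for defence and 13 and 3 for ubiquitin ligases, whereas quantile scaling gave 8 and 4 for kinases, 9 and 2 for defence and 10 and 4 for ubiquitin ligases. Among the higher kinases the count was 6 without T1 replicate 2, 4 without CK3 replicate 1 and 6 without T3 replicate 2, and among the lower ones 8 without CK2 replicate 1 and 2 without T3 replicate 2. For defence it was between 3 and 10 higher (10 without T3 replicate 2) and between 1 and 5 lower (5 without CK3 replicate 3). Among the ligase and F-box genes some were near 0 at DAF30 in both arms. RNF181-like (MD16G1051600) was listed at 0 in all CK1, T1, CK2 and T2 libraries and read 34.6, 18.1 and 30.6 FPKM in CK3 and 9.99, 4.07 and 7.52 in T3. F-box PP2-B15-like (MD04G1197700) rose in T alone, with 1.37, 0.82 and 0.44 FPKM in CK3 and 3.3, 16.9 and 19.8 in T3. Of the 483 genes, 280 belonged to none of the keyword lists.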
